A study of Mus musculus with 4 samples.

Results

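Receptor chains for interleukins, encoded by 10 genes, were followed across the lymphocytes of aged and young mice: Il2rb, Il2rg, Il15ra, Il7r, Il21r, Il12rb1, Il12rb2, Il27ra, Il18r1 and Il17rb. They are 10 of the 31053 genes in the count matrices and were chosen by name, as a list of receptors that NK, T or B cells carry. RNA of single cells had been counted in 4 libraries, 1 each from aged brain, aged spleen, young brain and young spleen, after a flow cytometric sort of cells bright for CD45, which marks leukocytes. For all 4 libraries the labels give the same tamoxifen injection and an aim of measuring NK cells positive for tdTomato, a red fluorescent protein, and they give no strain, age in numbers, driver of the marker or count of pooled mice. No group had a replicate library, so a difference is between libraries and carries no test. The 95% intervals given throughout cover counting error only.

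Interleukins reach lymphocytes through receptors built from shared and private chains. IL-2 and IL-15 both signal through the beta chain CD122 (Il2rb) and the common gamma chain CD132 (Il2rg). The receptors for IL-7 and IL-21 join the same gamma chain to another chain, Il7r or Il21r. IL-12 binds a pair of chains, Il12rb1 and Il12rb2, IL-27 uses Il27ra with the shared chain gp130, and IL-18 and IL-25 use receptors of other families. IL-15 keeps NK cells alive, IL-7 keeps resting T cells alive, and IL-12 and IL-18 together make NK cells release interferon gamma.

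Start-site sequences are shown for 3 chains that differed in how they were spread over the lymphocytes: Il7r was high in T cells and low in NK cells, Il2rg was found in each class, and Il12rb2 was found mostly in NK and NKT cells. Each is the stretch of 250 bases before the gene's start in RefSeq's GRCm38.p6 annotation, 5′ to 3′ on the strand of the gene, and capitals mark matches to 3 motifs searched on both strands.
Il7r, chr15:9529877-9530126, minus strand: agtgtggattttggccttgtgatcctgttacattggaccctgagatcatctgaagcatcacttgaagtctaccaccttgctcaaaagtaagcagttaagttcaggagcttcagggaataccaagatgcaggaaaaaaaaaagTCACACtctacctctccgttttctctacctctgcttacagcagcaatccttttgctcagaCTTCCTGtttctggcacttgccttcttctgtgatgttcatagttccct
Il2rg, chrX:101268256-101268505, minus strand: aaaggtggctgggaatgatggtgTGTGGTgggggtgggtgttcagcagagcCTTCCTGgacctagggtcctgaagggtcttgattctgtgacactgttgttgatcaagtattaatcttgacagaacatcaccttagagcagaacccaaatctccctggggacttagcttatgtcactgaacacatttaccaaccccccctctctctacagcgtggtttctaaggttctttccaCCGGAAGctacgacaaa
Il12rb2, chr6:67376189-67376438, minus strand: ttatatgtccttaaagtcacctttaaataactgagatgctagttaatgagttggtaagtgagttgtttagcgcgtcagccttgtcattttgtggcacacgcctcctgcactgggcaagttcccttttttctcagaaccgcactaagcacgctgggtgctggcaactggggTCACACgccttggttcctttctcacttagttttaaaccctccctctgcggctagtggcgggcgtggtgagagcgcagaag
The motifs were CNGGAAG for ETS factors, TGTGGT for RUNX factors and TCACAC for T-box factors, families with known roles in lymphocytes, and no match overlapped another. Among 32851 such windows of 27025 genes, 26.6% held the ETS motif, 14% the RUNX motif and 12.3% the T-box motif. The Il7r window held an ETS match ending 41 bases and a T-box match ending 102 bases before the RefSeq start. That window lies inside the GRCm38 span of Il7r given below, which ends at base 9530176. The sources therefore place the start of Il7r differently, and these distances hold for the RefSeq start only. The Il2rg window held ETS matches at 192 and 10 bases and a RUNX match at 221 bases, and the Il12rb2 window a T-box match at 74 bases. A match describes the letters of the window and no binding was measured. The promoter table held 7 of the 10 members.

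The libraries held 26384220 to 57011537 unique molecular identifiers (UMIs, tags that mark single RNA molecules). After filters on depth, mitochondrial share and doublets, 9075 cells were used in the aged brain, 5275 in the aged spleen, 3375 in the young brain and 6342 in the young spleen, with medians of 2196, 4635, 2306 and 4125 UMIs. The young brain shared 4660 cell barcodes with the aged spleen where 6.93 would be shared at random, and 4659 of them had more UMIs in the aged spleen, so 4991 of 8649 young brain cells (57.7%) with more UMIs elsewhere were left out. Outside these barcodes the young brain held 5 NK-like, 14 T-like and 0 B-like cells, too few to compare; the T-like cells gave 33 and the NK-like cells 10 UMIs of Il2rb. The labels call the cells of every library neuroblasts, whereas the cells described here expressed the markers of lymphocytes. In the spleens the NK-like cells numbered 709 in aged and 1751 in young, and over all libraries 83.2% of NK-like cells had a UMI of Ncr1 and 15.4% a UMI of a Cd3 gene. CD4 T-like cells numbered 597 in aged and 369 in young (Cd4 in 66.8%, as here over all libraries), CD8 T-like cells 292 in aged and 217 in young (Cd8b1 in 89.0%), NKT-like cells 172 in aged and 598 in young (Cxcr6 in 88.1%, Zbtb16 in 41.4%) and B-like cells 1918 in aged and 2416 in young (Cd79a in 99%). The CD4 T-like, NKT-like, remaining T-like and B-like classes lay mostly in different clusters at the 2 ages, which are named with their values.

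Il2rb (GRCm38 chr15:78479256-78495271, minus strand), the signalling chain that IL-2 and IL-15 share, was graded over the lymphocytes in the same order at both ages: NK-like, NKT-like, CD8 T-like, CD4 T-like and B-like cells. Levels are UMIs of the gene per 1e6 UMIs of the class (CPM). NK-like cells held 1261 CPM in the aged spleen (interval 1223 to 1299) and 1201 in the young spleen (1176 to 1226), and NKT-like cells 935 in aged and 829 in young. CD8 T-like cells held 213 CPM in aged and 148 in young, CD4 T-like cells 175 in aged and 67.1 in young, and B-like cells 8.73 in aged and 23.1 in young. In each library no neighbours in this order had intervals that overlapped. After each cell was thinned to 1000 UMIs, 73.5% of aged and 68.1% of young NK-like cells had a UMI of Il2rb, against 97.0% in aged and 96.3% in young before thinning. Thinning kept 706 of 709 aged and 1730 of 1751 young NK-like cells and 1908 of 1918 aged and 2388 of 2416 young B-like cells, whose median depths were 4513 aged and 3998 young and 4181 aged and 3795.5 young UMIs. The thinned share in B-like cells, a class that should hold little of it, was 0.734% in aged and 2.09% in young. Barcodes of at most 100 UMIs, which hold free RNA, gave 259 CPM of Il2rb in aged and 550 in young spleen. This was above the CD8 T-like, CD4 T-like and B-like levels in both libraries.

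**Figure D1:**
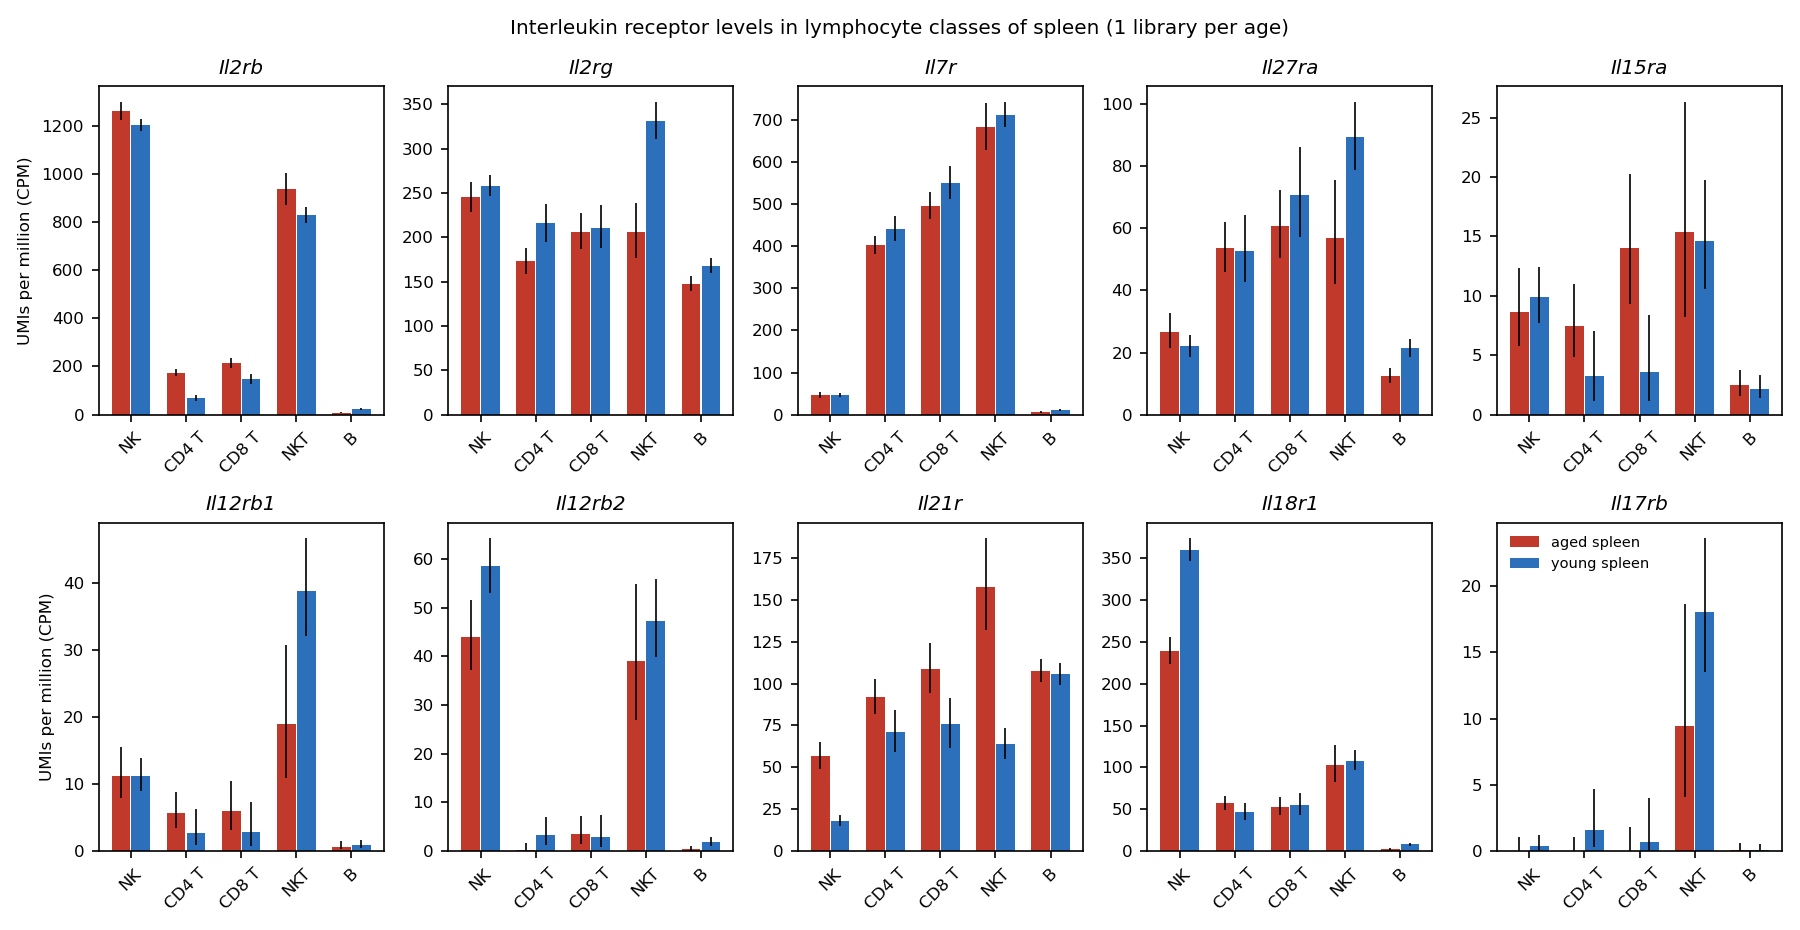
Levels of the 10 receptor genes in 5 lymphocyte classes of the aged spleen (left bar of each pair) and young spleen (right bar). Bars are UMIs per 1e6 UMIs of the class (CPM) on an axis that starts at 0, error bars are 95% Poisson intervals for counting error, and each bar is 1 library. Il2rb falls off in the order NK, NKT, CD8 T, CD4 T and B, while Il7r is highest in NKT and lowest in B cells.

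Il2rg, the gamma chain that the receptors for IL-2, IL-7, IL-15 and IL-21 all need, was spread far more evenly. In the aged spleen it ranged only between 148 CPM in B-like cells (140 to 156) and 245 CPM in NK-like cells (229 to 263), with CD8 T-like, NKT-like and CD4 T-like cells at 206, 206 and 173 CPM and overlapping intervals between neighbours. In the young spleen the order differed: NKT-like cells were highest at 331 CPM (311 to 353), NK-like cells held 258, CD4 and CD8 T-like cells 216 and 211, and B-like cells 168. Thinned shares ran between 13.8% (B-like) and 22.9% (NK-like) in the aged and between 14.7% (B-like) and 27.1% (NKT-like) in the young spleen. Free RNA held 139 CPM of Il2rg in aged and 188 in young spleen, so the young B-like level lay below it. Il15ra, the chain that presents IL-15 to neighbouring cells, was sparse. NKT-like cells held 15.4 CPM of it in aged and 14.6 in young, CD8 T-like cells 14 in aged and 3.60 in young, NK-like cells 8.60 in aged and 9.89 in young, CD4 T-like cells 7.45 in aged and 3.22 in young, and B-like cells 2.49 in aged and 2.18 in young. Free RNA held 5.45 CPM of Il15ra in aged and 10.3 in young spleen, so in young only the NKT-like level lay above it. Only in NK-like and NKT-like cells did Il15ra reach the 50 UMIs over both spleens that a ratio between ages required.

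Il7r (GRCm38 chr15:9505788-9530176, minus strand), a chain of the IL-7 receptor, separated T-like from NK-like cells. NKT-like cells held 683 CPM in aged (628 to 741) and 713 in young (682 to 744), CD8 T-like cells 497 in aged and 552 in young, CD4 T-like cells 402 in aged and 441 in young, NK-like cells 46.6 in aged and 47.3 in young, and B-like cells 6.46 in aged and 10.7 in young. The order was the same at both ages and no neighbours overlapped. Free RNA held 119 CPM of Il7r in aged and 206 in young spleen, above the NK-like and B-like levels. The thinned share was 44.2% in aged and 42.4% in young NKT-like cells, against 3.97% in aged and 3.24% in young NK-like and 0.681% in aged and 1.01% in young B-like cells. A smaller group of NK-like cells, T sub-cluster 4 with 119 aged and 92 young cells, carried far more Il7r than the main NK-like class, at 503 CPM in aged and 937 in young. It was led by Klrb1b, Ncr1 and Kit, Ncr1 was found in 84.4% and Gzma in 27.5% of its cells, and 17.1% had a UMI of a Cd3 gene. Its Il2rb level, 1410 CPM in aged and 1210 in young, was near that of the main NK-like class.

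Il21r (GRCm38 chr7:125603429-125633570, plus strand), the private chain of the IL-21 receptor, was the member found in B-like cells at the level of T-like cells. B-like cells held 108 CPM in aged (101 to 115) and 106 in young (99.3 to 112), and thinned shares of 11% in aged and 10.9% in young. In the aged spleen NKT-like cells were highest at 158 CPM (132 to 187), CD8 T-like, B-like and CD4 T-like cells followed at 109, 108 and 92.1 with overlapping intervals, and NK-like cells were lowest at 56.7. In the young spleen B-like cells were highest, CD8 T-like, CD4 T-like and NKT-like cells followed at 75.6, 70.9 and 63.7 with overlapping intervals, and NK-like cells were lowest at 18.2. The free RNA held 79.2 CPM in aged and 65.7 in young spleen, so the NK-like level was below that of free RNA in both.

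The IL-12 receptor chains, which carry the signal for interferon gamma production, and the IL-27 receptor chain gave different patterns. Il12rb2, the inducible signalling chain, stood at 43.9 CPM in aged (37.1 to 51.6) and 58.5 in young (53.1 to 64.3) NK-like cells and at 39.1 in aged and 47.4 in young NKT-like cells, with overlapping intervals between these classes at either age. The other 3 classes had at most 3.50 CPM in either spleen. Il12rb1, the chain that the receptors for IL-12 and IL-23 share, stood at 19.0 CPM in aged (10.8 to 30.8) and 38.8 in young (32.0 to 46.7) NKT-like cells. NK-like cells held 11.3 CPM of Il12rb1 in aged and 11.2 in young, and CD8 T-like, CD4 T-like and B-like cells at most 6.01. In the young spleen NKT-like cells were highest without overlap, while in the aged spleen the intervals of NKT-like, NK-like, CD8 T-like and CD4 T-like cells overlapped from each class to the next. Il27ra, which binds IL-27 together with gp130, was highest in T-like cells: CD8 T-like cells held 60.6 CPM in aged and 70.6 in young, NKT-like cells 56.9 in aged and 89.3 in young, and CD4 T-like cells 53.6 in aged and 52.6 in young. NK-like cells held 26.7 CPM of Il27ra in aged and 21.9 in young, and B-like cells 12.5 in aged and 21.4 in young. Free RNA held 19.5 CPM of Il27ra in aged and 28.9 in young spleen. This was above the B-like level at both ages and the NK-like level in young. Of Il12rb1 it held 3.86 CPM in aged and 10.8 in young, the latter near the young NK-like level. For Il12rb2 it held 14.1 CPM in aged and 28.1 in young, below the NK-like and NKT-like levels.

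Il18r1 (GRCm38 chr1:40465552-40500854, plus strand), the binding chain of the IL-18 receptor, was highest in NK-like cells, at 239 CPM in aged (223 to 256) and 360 in young (346 to 374). NKT-like cells held 103 CPM in aged and 108 in young, CD4 T-like cells 56.9 in aged and 46.2 in young, CD8 T-like cells 53.1 in aged and 55.4 in young, and B-like cells 2.95 in aged and 8.12 in young. Thinned shares in NK-like cells were 25.4% in aged and 27.7% in young. Free RNA held 83.5 CPM of Il18r1 in aged and 146 in young spleen. This was above the CD4 T-like, CD8 T-like and B-like levels at both ages and the NKT-like level in young. Il17rb, a receptor chain for IL-25, was found mostly in NKT-like cells. These held 8 UMIs in aged (9.48 CPM, 4.09 to 18.7) and 53 in young (18.1 CPM, 13.5 to 23.6). No other of the 5 classes had more than 3 UMIs in either spleen.

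**Figure D2:**
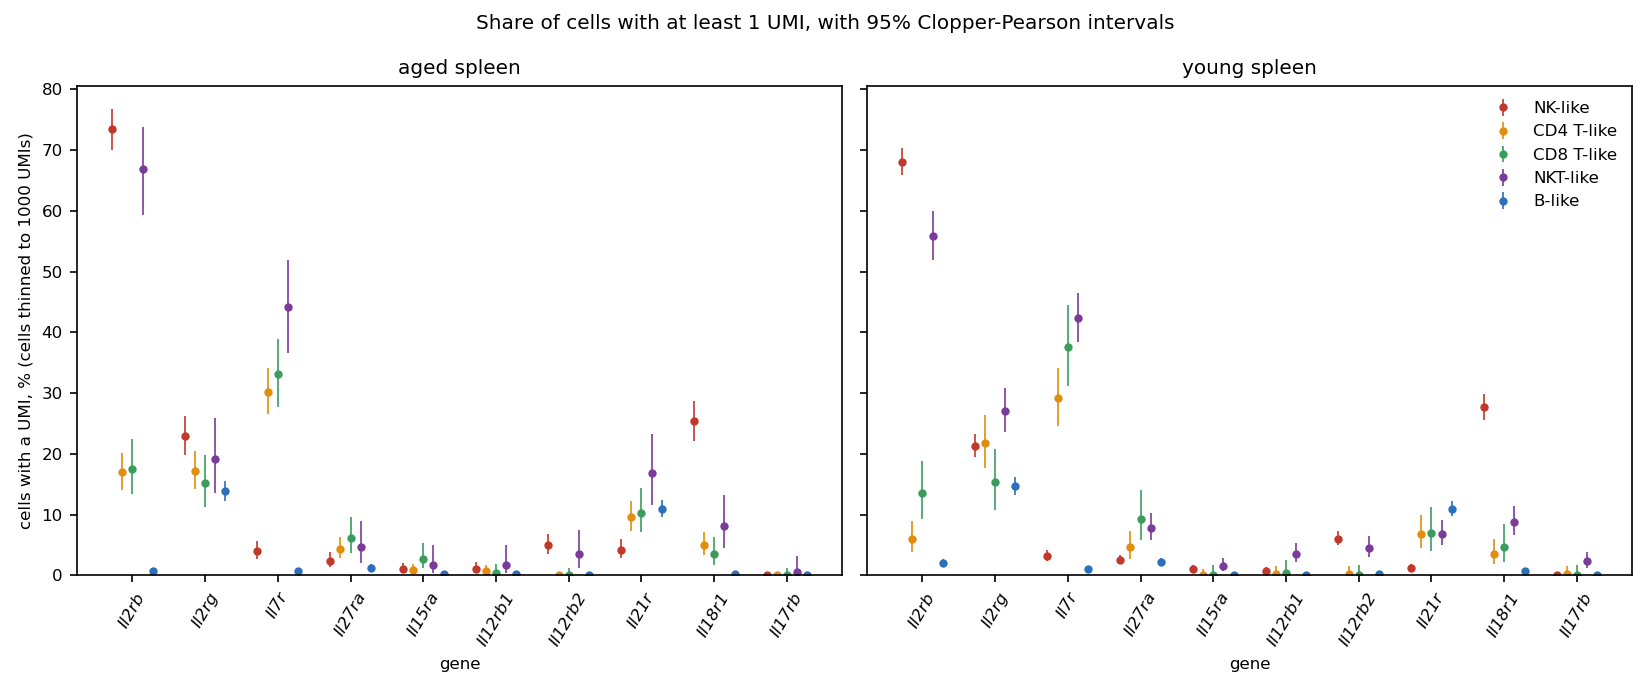
Share of cells with at least 1 UMI of each receptor gene after each cell was thinned to 1000 UMIs, in percent, by class, in the aged spleen (left panel) and young spleen (right panel). Bars are 95% Clopper-Pearson intervals; the NK-like shares of Il2rb, at 73.5% in aged and 68.1% in young, are the highest values shown.

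Sub-clusters of T-like cells showed how far the members varied inside a class. Among CD4 T-like cells, Il2rb stood at 261 CPM in sub-cluster 3 against 18.3 in sub-cluster 5 and 31.3 in sub-cluster 15, over all libraries. Il18r1 followed the same division, at 85.5, 18.3 and 29.3 CPM. Among CD8 T-like cells, sub-cluster 1 held 377 CPM of Il2rb and sub-cluster 7 held 155. A small group of 32 spleen cells with Il17a and Cd163l1 among its leading genes (sub-cluster 13, 20 aged and 12 young cells) held 1172 CPM of Il7r, 610 of Il18r1, 63.6 of Il12rb1 and 191 of Il2rb. Sub-cluster 11, led by Sox4, Myb and Cd24a, genes of immature cells, held 81.3 CPM of Il7r and 7.10 of Il18r1. Il2rb thus differed more between CD4 T-like sub-clusters than between the CD4 and CD8 T-like classes as wholes.

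**Figure D3:**
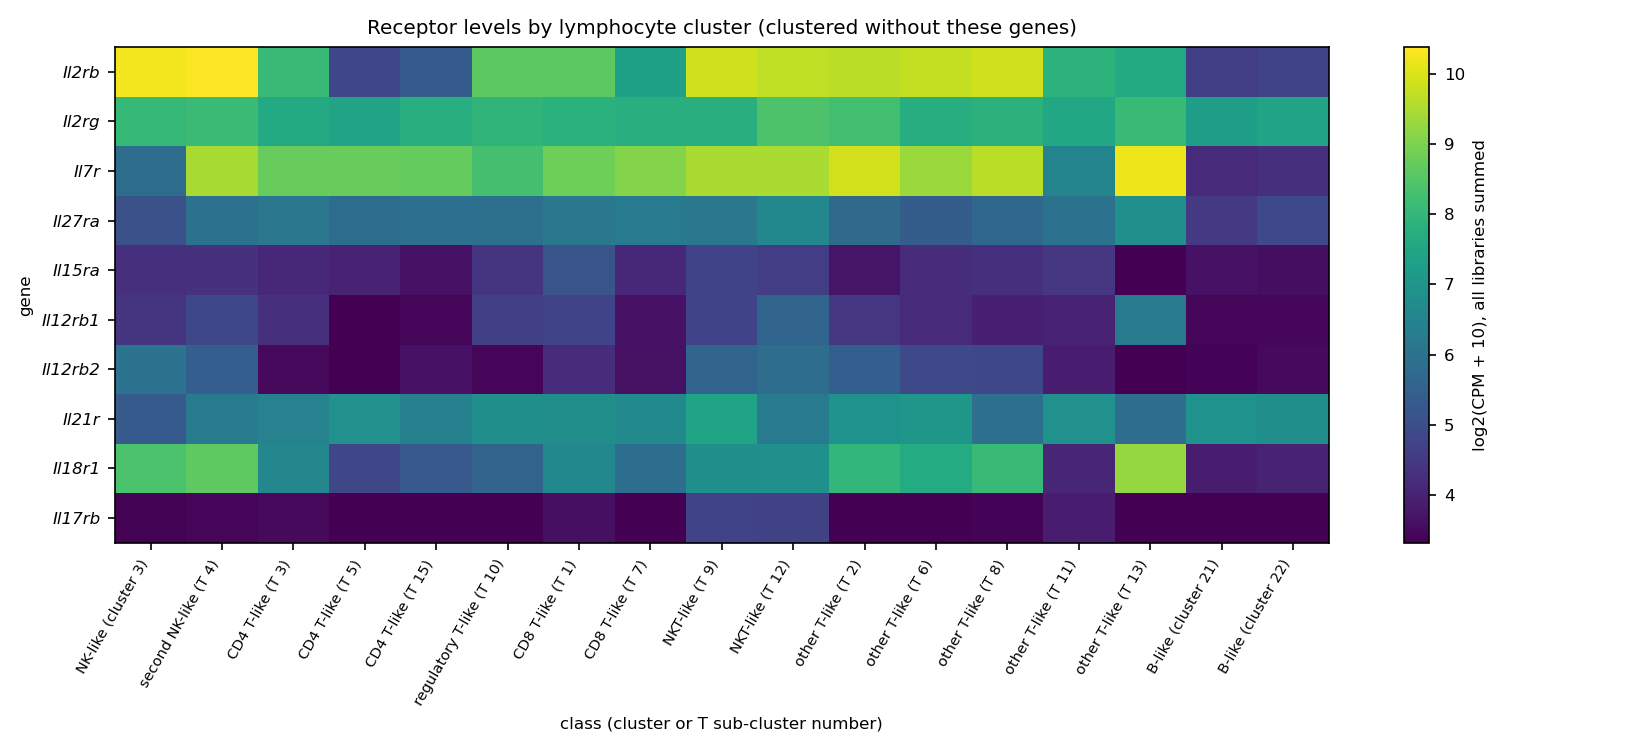
Levels of the 10 receptor genes (down the page) in clusters and T sub-clusters of lymphocytes (across), as log2 of CPM plus 10 with the libraries summed. CD4 T sub-cluster 3, at 261 CPM of Il2rb, stands apart from sub-clusters 5 and 15 at 18.3 and 31.3 CPM.

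Members of the list were also compared within single cells of a class. In thinned NK-like cells, Il2rg was found in 22.5% of aged cells with an Il2rb UMI (19.0 to 26.4) and in 24.1% of those without (18.1 to 30.8), and in young cells in 21.5% and 21.0%. Il18r1 was found in 26.4% of aged NK-like cells with an Il2rb UMI and 22.5% without, and in young cells in 29.5% (26.9 to 32.2) and 24.1% (20.6 to 27.9). Il21r, among NKT-like cells, was found in 16.5% of aged cells with an Il2rb UMI and 17.5% without, and in young cells in 7.19% and 6.46%. Within each age the intervals of each of these pairs overlapped, and no test of the differences was made. In T-like cells outside the CD4, CD8, NKT and regulatory groups, Il2rg was found in 18.4% of aged cells with an Il2rb UMI and 17.7% of those without. In young cells of that group it was found in 24.9% with (19.2 to 31.3) and 12.7% without (7.80 to 19.1). These intervals narrowly missed each other, at 19.2 against 19.1. Of all the gene pairs compared in this way over classes and spleens, no other lacked overlap. The group also pools several sub-clusters, and the difference was not tested.

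Genes with the most similar pattern were sought over 27 units (a class in 1 library) among 11165 genes, by Pearson's r of log2(CPM + 10). These units share libraries, depth and free RNA, so r is a description. Il2rb was most like Dusp5 (r = 0.972), Txk (0.969) and D16Ertd472e (0.960), and Il18r1 was most like Nkg7 (0.957), Ifng (0.948) and Il2rb itself (0.948). Il12rb2 was most like Cd200r4 (0.952), ahead of Samd3 and Klrb1c, and Il12rb1 was most like the chemokine receptor gene Cxcr3 (0.921). Il7r ran with the T-cell receptor constant region Trbc2 (0.909), then Thy1 and Cd28, and Il27ra with Xlr4b (0.960). For Il2rg the closest gene was Gimap4 (0.974), for Il17rb it was Il4 (0.859), for Il21r it was Il4ra (0.799) and for Il15ra it was Zkscan7 (0.783).

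The aged and young spleens were then compared class by class, which addresses whether age went with other receptor levels outside the brain. A gene counted as past the fold if its CPM ratio, aged over young, was at least 1.5 or at most 1/1.5, with at least 50 UMIs over both libraries. Of 37 such comparisons of a member in a class, 3 were past the fold as higher and 9 as lower in the aged spleen. The members' own counts are read below against the share of all genes past the fold in the same class.

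In NK-like cells, which lay in cluster 3 at both ages, 1 of 9 members measured was higher past the fold and 1 lower, beside 17.8% of all genes in either direction, 6.5% higher and 11.3% lower. Il21r held 191 UMIs (56.7 CPM, 48.9 to 65.3) in the aged spleen and 134 UMIs (18.2 CPM, 15.2 to 21.5) in the young spleen. That is a ratio of 3.12 (2.49 to 3.92), and the thinned shares were 4.25% in aged and 1.27% in young, with B-like cells at 11% in aged and 10.9% in young. Il18r1 was lower at 0.665 (0.614 to 0.720), which lay at the limit and was inside the fold under 6 alternatives, at 0.671 to 0.850. Il12rb2 was lower short of the fold at 0.750 (0.618 to 0.906). Il2rb at 1.05 (1.01 to 1.09), Il2rg at 0.951, Il7r at 0.985, Il27ra at 1.22, Il15ra at 0.870 and Il12rb1 at 1.0 stayed within it. At a mitochondrial limit of 5%, Il7r was past the fold as lower (0.574). The members' median log2 ratio was -0.02, against -0.13 over all genes measured. The smaller NK-like group gave a larger Il21r ratio, with 99 CPM in aged (67 UMIs) and 20.01 in young (10 UMIs) (4.95, 2.53 to 10.8), and lower Il7r (0.537, 0.465 to 0.618), Il27ra (0.591) and Il18r1 (0.632). In that group 19.4% of all genes were past the fold, 9.47% higher and 9.97% lower.

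**Figure D4:**
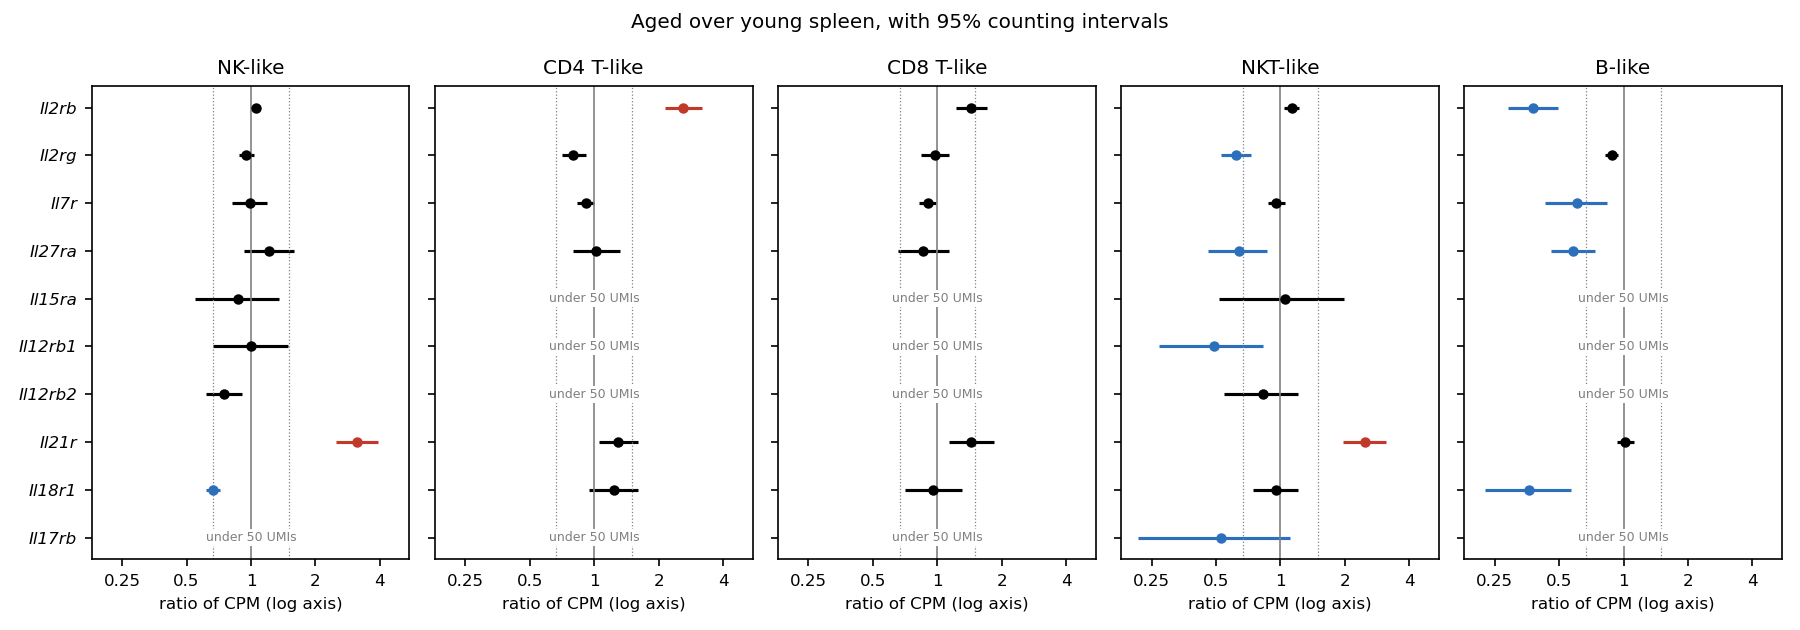
CPM ratio, aged over young spleen, of each receptor gene in 5 lymphocyte classes on a log axis, with 95% intervals for counting error and lines at 1, 1.5 and 1/1.5. Il21r in NK-like cells (3.12) and NKT-like cells (2.47) and Il2rb in CD4 T-like cells (2.61) lie beyond the upper line; pairs under 50 UMIs are not drawn.

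In CD4 T-like cells 1 of 6 members was past the fold, beside 18.9% of all genes, 12.2% higher and 6.68% lower. Il2rb stood at 175 CPM (161 to 190) in the aged spleen against 67.1 CPM (55.9 to 80.0) in young, a ratio of 2.61 (2.14 to 3.19), with thinned shares of 17.0% in aged and 5.99% in young. The class was made up differently at the 2 ages: sub-cluster 3, the one high in Il2rb, gave 360 aged and 80 young cells, sub-cluster 5 gave 225 aged and 5 young, and sub-cluster 15 gave 12 aged and 284 young. Within sub-cluster 3 alone the ratio was 1.40 (1.11 to 1.80), from 274 CPM in aged and 196 in young, which is inside the fold. When T-like cells were divided by their UMIs of Cd4 against Cd8a and Cd8b1 instead, it was 1.60. Il21r at 1.3 (1.06 to 1.61), Il18r1 at 1.23, Il27ra at 1.02, Il7r at 0.912 and Il2rg at 0.801 were within the fold. The members' median was 0.16 on the log2 scale, against 0.02 over all genes.

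In CD8 T-like cells 0 of 6 members were past the fold, beside 16.3% of all genes, 8.56% higher and 7.7% lower. Il2rb, at 213 CPM in aged and 148 in young, gave 1.44 (1.22 to 1.71), and Il21r, at 109 in aged and 75.6 in young, gave 1.44 (1.13 to 1.83). Sub-cluster 7 held most of the class at both ages, with 214 aged and 201 young cells, and gave 1.22 for Il2rb and 1.53 (1.19 to 1.98) for Il21r. Each was past the fold under 3 alternatives over the whole class, Il2rb at 1.52 to 1.77 and Il21r at 1.53 to 1.58. Sub-cluster 1, higher in Il2rb, gave 78 aged and 16 young cells. The members' median log2 ratio was -0.05, against -0.04 over all genes. In regulatory T-like cells (156 aged, 59 young) no member was past the fold, beside 23.3% of all genes, 14.5% higher and 8.82% lower, and Il21r stood at 104 CPM in aged and 106 in young. In the remaining T-like cells (450 aged, 359 young) Il21r alone was past it, at 121 CPM in aged and 55.5 in young (2.17, 1.78 to 2.67), beside 17.1% of all genes, 7.49% higher and 9.6% lower. Most aged cells of this class lay in sub-cluster 6 (288 aged, 2 young) and most young cells in sub-cluster 8 (15 aged, 272 young), which held 124 and 49.4 CPM of Il21r over all libraries, so age and sub-cluster cannot be told apart there. Within single sub-clusters the Il21r ratio was 1.90 (1.09 to 3.47) in sub-cluster 2, with 58 aged and 49 young cells, 1.42 (0.861 to 2.43) in sub-cluster 11 and 1.18 (0.372 to 2.85) in sub-cluster 8.

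In NKT-like cells 1 of 10 members was higher and 4 were lower past the fold, beside 20.7% of all genes, 8.52% higher and 12.2% lower. Il21r held 133 UMIs (158 CPM) in aged and 187 UMIs (63.7 CPM) in young, a ratio of 2.47 (1.97 to 3.11), with thinned shares of 16.9% in aged and 6.87% in young. Lower were Il12rb1 at 0.488 (0.270 to 0.827), Il17rb at 0.525 with an interval that included 1 (0.216 to 1.11), Il2rg at 0.622 (0.526 to 0.732) and Il27ra at 0.637 (0.458 to 0.870). The Il2rg ratio was inside the fold with a mitochondrial limit of 5% (0.712) and with thinned cells (0.698). Nearly all aged cells of the class lay in sub-cluster 9 (154 aged, 4 young) and nearly all young cells in sub-cluster 12 (18 aged, 594 young), so age and sub-cluster cannot be told apart. Within sub-cluster 12 the Il21r ratio was 1.13 (0.450 to 2.38) from 7 aged and 187 young UMIs, Il2rg gave 0.753 and Il12rb1 1.07. The members' median log2 ratio was -0.17, against -0.07 over all genes.

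In B-like cells 0 of 6 members were higher and 4 were lower past the fold, beside 14.7% of all genes, 5.35% higher and 9.32% lower. The 4 were Il2rb (8.73 CPM in aged, 23.1 in young; 0.378, 0.288 to 0.491), Il18r1 (0.363), Il27ra (0.583) and Il7r (0.604). These 4 chains were sparse in B-like cells, with at most 12.5 CPM in aged and 23.1 in young. In free RNA they were also lower in the aged spleen: Il2rb stood at 259 CPM in aged and 550 in young, Il7r at 119 in aged and 206 in young, Il18r1 at 83.5 in aged and 146 in young and Il27ra at 19.5 in aged and 28.9 in young. The part of free RNA in the B-like values was not tested. At a mitochondrial limit of 5%, which left 321 aged and 778 young B-like cells, the ratios of Il2rb, Il7r and Il18r1 turned to 1.97, 1.71 and 1.37. Il21r and Il2rg, each found in over 10% of thinned B-like cells, stood at 1.02 (0.933 to 1.11) and 0.880. The 2 B-like clusters, cluster 21 with 1111 aged and 353 young cells and cluster 22 with 807 aged and 2063 young, gave 1.06 and 0.969 for Il21r and 0.217 and 0.425 for Il2rb. The members' median log2 ratio was -0.75, against -0.13 over all genes.

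The Il21r ratio was thus past the fold in NK-like cells and in the smaller NK-like group, each of which was 1 cluster or sub-cluster at both ages, and near 1 in B-like and regulatory T-like cells. In NKT-like and remaining T-like cells it was past the fold over the class, but age and sub-cluster cannot be told apart there. Over the CD4 T-like and CD8 T-like classes it was within the fold, at 1.3 and 1.44, with intervals above 1. Among the other single T sub-clusters with an Il21r ratio given above, it was past the fold in sub-clusters 2 (remaining T-like) and 7 (CD8 T-like). It was short of the fold in sub-clusters 8 and 11 (remaining T-like) and 12 (NKT-like). No Il21r ratio is given here for sub-clusters 1 (CD8 T-like) and 3 (CD4 T-like), which also held cells of both ages. Free RNA of Il21r stood at 79.2 CPM in aged and 65.7 in young spleen. The differences between classes in these ratios were not tested.

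Aged brain and aged spleen were compared over NK-like cells and over all T-like cells together, since only 16 NK-like and 95 T-like cells came from the aged brain, with UMI sums of 55230 and 290198. All T-like cells here means the whole T-like cluster, the smaller NK-like group included, with 1806 cells in the aged spleen. Of the 95 brain cells, 92 lay in T sub-cluster 0, which held no spleen cells, was led by Ttr, C1qa and Cx3cr1, genes of choroid plexus and microglia, and was left unnamed below the T-like level. Tissue and sub-cluster therefore cannot be told apart in these values. Over all genes 55.4% were past the fold in NK-like cells, 34.2% higher and 21.2% lower in the brain, and 51.4% in T-like cells, 29.9% higher and 21.5% lower. Against that, 1 of 6 members was higher and 1 lower past it in NK-like cells, and 1 of 9 was higher and 2 lower in T-like cells. The microglial marker list, with all 10 genes detected, summed to 1992 CPM in NK-like and 5072 in T-like cells of the aged brain and to 26559 in microglia-like cells there, against 34.1 (6 of 10 detected) and 32.5 (7 of 10) in NK-like and T-like cells of the aged spleen. Its part in the results below was not tested.

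Il7r was lower in T-like cells of the aged brain, with 196 CPM against 494 in the aged spleen and a ratio of 0.397 (0.300 to 0.515). Microglia-like cells of the same library held 59.2 CPM of Il7r, and free RNA held 59.8 CPM in the aged brain and 119 in the aged spleen. Il27ra gave 13.8 CPM (4 UMIs) in the brain against 50.8 in the spleen, a ratio of 0.272 (0.0737 to 0.699). Il12rb2 gave 31.0 CPM (9 UMIs) against 11.7, a ratio of 2.64 (1.18 to 5.17). The Il12rb2 ratio turned to 0.713 when cells needed at least 1000 UMIs. That setting also regrouped the aged brain cells, with 69 NK-like and 45 T-like in place of 16 and 95. Il2rb at 689 CPM in brain and 487 in spleen (1.42, 1.22 to 1.63), Il2rg at 286 in brain and 200 in spleen (1.43), Il21r at 99.9 in brain and 110 in spleen (0.910) and Il18r1 at 96.5 in brain and 108 in spleen (0.890) stayed within the fold. Il2rb and Il2rg were past the fold at mitochondrial limits of 20% (1.66 and 1.53) and 5% (1.95 and 1.68). Il2rb was also past it at resolution 1.5 (1.57), and Il2rg with thinned cells (2.07). Their lowest values over the alternatives were 0.941 and 1.17. Il18r1 was past the fold with at least 1000 UMIs (1.68), again over the regrouped cells. The members' median log2 ratio was 0.09, against 0.16 over all genes.

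These brain cells of the T-like class were mixed: 53 of 95 had a UMI of a Cd3 gene, 34 had none but had one of Ncr1 or Klrb1c, and 8 had neither. Lymphocytes were therefore also divided by these UMIs per cell, a division chosen after the data were seen. Among cells with a Cd3 UMI, 57 in the aged brain and 1826 in the aged spleen, Il7r was lower at 177 CPM against 464 (0.380) and Il2rb stood at 519 against 494 (1.05). Among cells with a UMI of Ncr1 or Klrb1c and none of Cd3, 46 in brain and 648 in spleen, Il2rb stood at 1014 CPM against 1309 (0.775), Il18r1 at 86.9 against 289 (0.300) and Il2rg, past the fold, at 406 against 252 (1.61, 1.20 to 2.11). Il21r in these cells stood at 94.2 CPM against 45.3 (2.08), where microglia-like cells held 99.5, and Il7r at 138 against 119 (1.16).

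In cells of the NK-like class, Il2rg stood at 416 CPM (23 UMIs) in the aged brain and 245 in the aged spleen. The ratio of 1.70 (1.07 to 2.56) was inside the fold under 3 alternatives (1.3 to 1.39). Among them, at least 1000 UMIs (1.39) put 69 brain cells in the class in place of 16. Il18r1 in the NK-like class stood at 145 CPM (8 UMIs) in brain and 239 in spleen, a ratio of 0.606 (0.261 to 1.20). The Il18r1 ratio was inside the fold at mitochondrial limits of 20% (0.675) and 5% (0.758). Il2rb stood at 978 CPM in brain and 1261 in spleen (0.776, 0.582 to 1.01) and Il21r, with 3 UMIs in the brain, at 54.3 in brain and 56.7 in spleen. Il7r had 0 UMIs in these 16 cells, which allows up to 54.3 CPM at 3 counts, against 46.6 CPM in the spleen, so a difference was not detectable at this depth. The members' median log2 ratio was -0.21, against 0.19 over all genes.

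**Figure D5:**
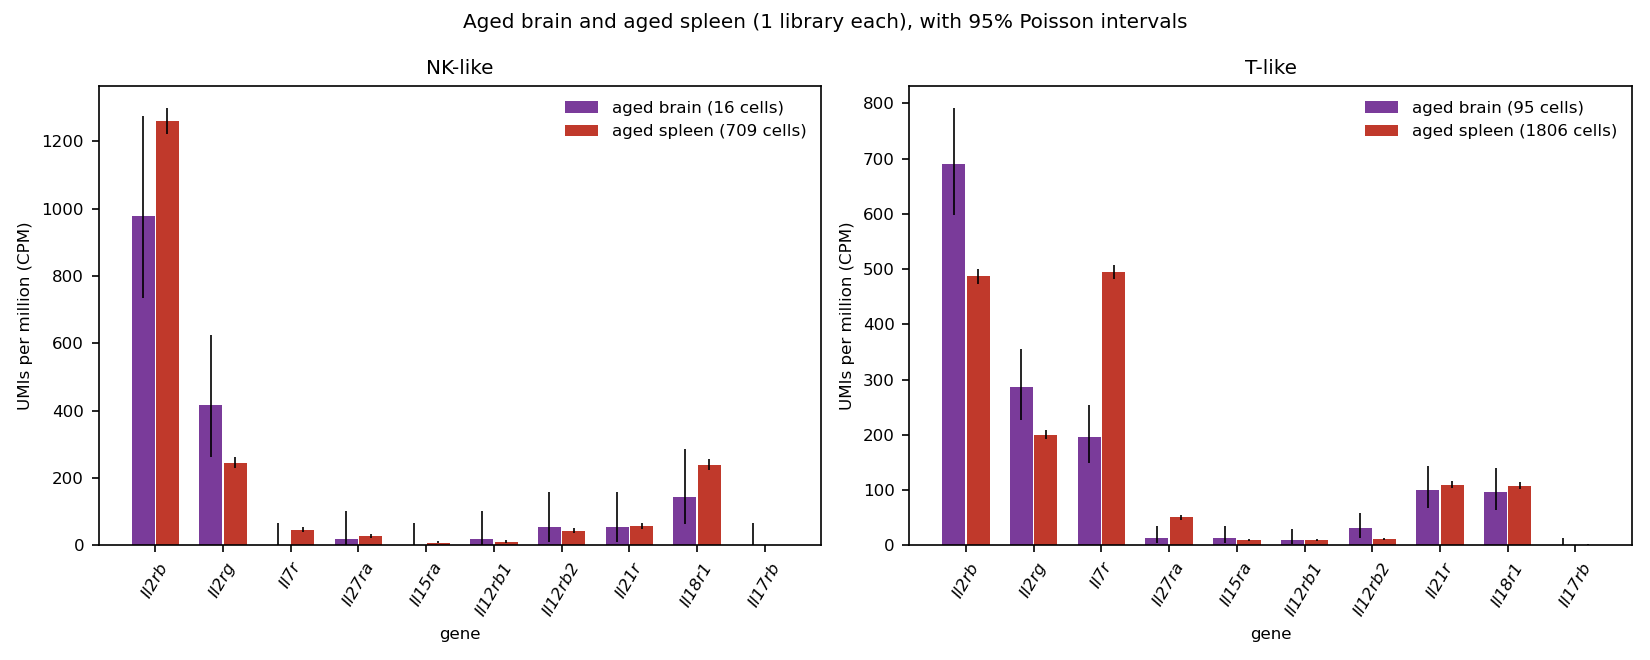
Levels of the 10 receptor genes in NK-like and T-like cells of the aged brain (left bar of each pair) and aged spleen (right bar), in CPM with 95% Poisson intervals. Il7r in T-like cells is lower in the brain (196 CPM) than in the spleen (494 CPM); the NK-like bars of the brain rest on 16 cells and have wide intervals.

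The rest of the interleukin pathway was described from 5 lists in the aged and young spleens, naming up to 4 members of each with the most UMIs; their counts stand against the shares of all genes given for each class. Of 18 other receptor chains, 2 of 9 measured in NK-like cells were higher and 2 lower past the fold in the aged spleen, 4 of 10 were higher in CD4 T-like, 2 of 10 in CD8 T-like and 4 of 9 in NKT-like cells with none lower, and 2 of 13 were higher and 1 lower in B-like cells. The median log2 ratios of this list were -0.33 in NK-like, 0.35 in CD4 T-like, 0.32 in CD8 T-like, 0.42 in NKT-like and 0.21 in B-like cells, against -0.13, 0.02, -0.04, -0.07 and -0.13 over all genes. Il4ra, the chain for IL-4 and IL-13, stood at 88.4 CPM in aged and 25.1 in young NK-like cells (3.53, 2.93 to 4.26), at 122 in aged and 56.2 in young CD8 T-like cells (2.17) and at 126 in aged and 56.6 in young NKT-like cells (2.22). It stayed within the fold in CD4 T-like cells (1.06) and B-like cells (0.837). Ifngr1, a chain of the interferon gamma receptor, gave 467 CPM in aged and 166 in young NKT-like cells (2.81) and 156 in aged and 91.3 in young CD4 T-like cells (1.71). Il18rap, the partner of Il18r1, gave 344 CPM in aged and 441 in young NK-like cells (0.781). All pathway ratios, here and below, were taken over whole classes. CD4 T-like, NKT-like and B-like cells lay mostly in different clusters at the 2 ages, so age and cluster cannot be told apart in their ratios.

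Among the 15 kinases, STATs and adaptors, 1 was higher and 2 were lower in NK-like cells, 3 higher and 0 lower in CD4 T-like, 2 higher and 0 lower in CD8 T-like, 1 higher and 4 lower in NKT-like and 1 higher and 1 lower in B-like cells, with median log2 ratios of -0.07, 0.26, 0.16, 0.04 and 0.08 in that order. Stat3, which carries the IL-21 and IL-27 signals, stood at 343 CPM in aged and 158 in young NK-like cells (2.17, 2.0 to 2.35), with ratios of 1.75 in CD4 T-like, 1.75 in CD8 T-like, 1.23 in NKT-like and 1.76 in B-like cells. Jak1, the kinase bound to Il2rb and Il7r, stood at 1132 CPM in aged and 1143 in young NK-like cells.

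The brakes of the pathway, 7 genes, gave 2 of 6 measured higher and 1 lower in NK-like cells, 3 of 5 higher in CD4 T-like, 1 of 4 higher and 1 lower in CD8 T-like, 3 of 6 higher and 1 lower in NKT-like and 1 of 5 higher and 2 lower in B-like cells, with medians of -0.03, 0.65, 0.16, 0.59 and -0.03. Socs3, an inhibitor that STAT3 signals switch on, was higher in the aged spleen in each of the 5 classes: 256 CPM in aged and 123 in young NK-like cells (2.09), 262 in aged and 38.1 in young CD4 T-like cells (6.88, 5.40 to 8.89), 151 in aged and 46.8 in young CD8 T-like cells (3.22), 180 in aged and 51.4 in young NKT-like cells (3.50) and 59.4 in aged and 20.7 in young B-like cells (2.87). Ptpn6, the phosphatase SHP-1, gave ratios of 0.639, 0.691, 0.633, 0.50 and 0.546 in the same order of classes. For both genes, age and cluster cannot be told apart in CD4 T-like, NKT-like and B-like cells. Of the 10 target genes, 1 was higher in NK-like cells with none lower, 3 were higher and 1 lower in CD4 T-like and in CD8 T-like cells, 2 higher and 0 lower in NKT-like and 2 higher and 5 lower in B-like cells, with medians of -0.08, 0.40, 0.38, 0.16 and -0.63. The kinase gene Pim1 stood at 1322 CPM in aged and 648 in young NK-like cells (2.04), and the survival gene Bcl2 at 507 in aged and 163 in young NKT-like cells (3.12). Few of the 14 ligands were measured: 2 in NK-like cells, where Il15 was lower, 2 in CD4 T-like cells, where Il21 was higher, 1 in NKT-like, none in CD8 T-like and 4 in B-like cells, where Il18 was lower. Il15, Il18 and Il21 are named after their values were seen. Il4 in NKT-like cells stood at 97.2 CPM in aged and 86.9 in young (1.12).

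The authors' deposited cluster tables give, for each cluster of a library, the percent of its cells with a gene, and their shares are not thinned. In the authors' deposited table of the aged spleen, cluster 2 (Ncr1 in 76.2%) had Il2rb in 97.7% and Il18r1 in 57.5% of cells. In the authors' deposited table of the young spleen, cluster 1 (Ncr1 in 88.0%) had Il2rb in 96.8% and Il18r1 in 69.6%, and cluster 0 (Cd79a in 99.9%) had Il21r in 33.1%. In the authors' deposited table of the aged brain, cluster 11 held both Ncr1 (34.6%) and Cd3d (31.4%), with Il2rb in 70.5% and Il2rg in 56.4% of cells. The mapping of single cells to those clusters was not used here.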

How the data were processed

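The work used UMI counts of 4 libraries, 1 in each group. The authors deposited raw counts, whole UMIs by gene and barcode, with no normalization and no cell calling (6794880 barcodes, per the file headers). Per the labels' protocols the 10x Chromium 3′ kit was used. Among the submitters' processing notes are Cell Ranger 1.3.1 and the human build GRCh38. The headers instead give software version 3.1.0 and the gene identifiers are mouse ones, which leaves the software and annotation uncertain. How multi-mapped reads were counted has no statement in the labels or headers. The authors' deposited cluster tables hold the fraction of a cluster's cells with a gene, printed here as percent.

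Cells had at least 500 UMIs, 250 genes and at most 10% mitochondrial UMIs, and passed an ambient test (10000 simulations, false discovery rate 0.01) or a size cutoff. Doublets were removed with Scrublet in scanpy 1.11.5 (Python 3.11.15, scipy 1.17.1, numpy 2.4.6), 169 from aged and 240 from young spleen. In the brains its threshold marked under 0.5%, so the top scores were removed, 776 in the aged and 598 in the young. Leiden clustering (resolution 1.0, 2000 variable genes, 30 components, 15 neighbours) left out the 10 receptor genes, and T-like cells were clustered again. Clusters were named by 26 marker lists and a minimum score of 1.0. T sub-clusters were named by a score of 2.0 for regulatory T or 0.5 for NKT markers, then by Cd4, or Cd8a or Cd8b1, in at least 50% of cells, and by the NK score where under 50% had a Cd3 UMI. These scoring rules were set after the data were seen. Names rebuilt in this way may differ from the study's.

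Levels are UMIs summed per class and library (CPM) with exact Poisson intervals. Shares come from cells thinned to 1000 UMIs, with shallower cells left out and Clopper-Pearson intervals. Ratios have exact conditional binomial intervals. Where a class had 0 UMIs of a gene, 3 counts stood in as its upper limit, and no fold was given if that bound crossed 1. No test was made. In data simulated for NK-like cells of the spleens, 96.0% of 100 genes set at a ratio of 0.5 were past the fold. So were 97.0% of 100 set at 2.0 and 2.41% of 8798 unchanged genes. The simulation drew Poisson counts from a shared rate per gene, so it held counting error only. It had no variation between libraries or cells and cannot tell how many unchanged genes pass the fold between real libraries. All 10 receptor genes were named, and of other pathway genes up to 4 per list with the most UMIs over the lymphocyte classes of both spleens. One gene that this rule names is not reported here. The members and all lists were chosen with earlier results of these data known.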

Additional observations from a re-analysis of the deposited data

Results flagged for a closer look

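The age ratio of Il2rb, aged over young spleen, went in opposite directions in different lymphocyte classes: it was 2.61 in CD4 T-like cells and 0.378 in B-like cells. With 1 library per age the difference between these ratios was not tested. In CD4 T-like cells the ratio came with an unequal make-up of the class, since sub-cluster 3, high in Il2rb, gave 360 aged and 80 young cells and a ratio of 1.40 by itself. At a mitochondrial limit of 5% the B-like ratio turned to 1.97, the same direction as in CD4 T-like cells. In B-like cells the level was 8.73 CPM in aged and 23.1 in young, beside free RNA at 259 CPM in aged and 550 in young. The part of free RNA in either ratio was not tested.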

How the results depend on the processing

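No paired analysis was possible because each group had 1 library and no replicate numbers. Of the settings tried, the mitochondrial limit (20% or 5%), at least 1000 UMIs, doublets kept, another clustering seed, resolution 1.5, receptor genes kept in the clustering and T-like cells divided by Cd4 and Cd8 UMIs left the 4 counts of levels, shares and ratios within 1.5 times their values. Levels of at least 50 CPM numbered 47 (43 to 52 over the alternatives). Thinned shares of at least 10% numbered 29, and 54 without thinning. Members past the fold between spleens numbered 12, but 7 with thinned cells and 19 with no UMI minimum. Those between aged brain and aged spleen numbered 5 (5 to 7). Direction turned in B-like cells at a mitochondrial limit of 5%, which left 321 aged and 778 young cells: Il2rb stood at 1.97, Il7r at 1.71 and Il18r1 at 1.37. It also turned for Il12rb2 in T-like cells, brain over spleen, at 0.713 with at least 1000 UMIs. That setting also regrouped the aged brain cells, with 69 NK-like and 45 T-like. The causes were not tested. Median-of-ratios scaling shifted all genes by -0.12 (log2) in B-like cells between the spleens, and by 0.34 in NK-like and 0.25 in T-like cells between brain and spleen. Leaving out aged brain barcodes with more UMIs in another library, an alternative chosen after the data were seen, kept Il7r in T-like cells at 0.398. Depth limits the brain: its 16 NK-like cells held 55230 UMIs, so a gene with 3 UMIs there stood at 54.3 CPM.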

Other observations

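UMIs of Il21r and Il7r were also found in microglia-like cells, the resident phagocytes of the brain. Il21r stood at 99.5 CPM in 4995 aged brain cells (94.3 to 105) and at 130 in 2437 young brain cells (121 to 139), a level near that of splenic B-like cells. The thinned share of microglia-like cells with a UMI of Il21r was 10.3% in aged and 12.3% in young. Il7r stood at 59.2 CPM in aged (55.2 to 63.5) and 73.5 in young (66.9 to 80.6) microglia-like cells, while Il2rb stood at 0.6 CPM in aged and 2.9 in young. Barcodes of at most 100 UMIs in the aged brain held 61.4 CPM of Il21r, 59.8 of Il7r and 67.4 of Il2rb. In the young brain they held 83.4 CPM of Il21r, 71.0 of Il7r and 99.9 of Il2rb. The Il7r level of microglia-like cells was thus near that of free RNA in both brains, and the Il21r level was above it.

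In the spleens the red pulp macrophage-like cells, shallow at a median of 780 UMIs, held 89.6 CPM of Il2rb in 56 aged cells and 553 in 134 young cells, where free RNA stood at 259 CPM in aged and 550 in young spleen.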
